A study of Mus musculus with 51 samples.

Results

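The genes described here are 40 genes of the vacuolar proton pump (V-ATPase) and the lysosome, taken by a list of names from the 50600 gene IDs of the count tables. They comprise 8 genes of the pump's V1 sector, 8 of its V0 sector, 2 accessory proteins, 7 lysosomal peptidases, 4 other hydrolases, 3 further luminal proteins, 5 lysosomal membrane proteins and the 3 transcription factors Tfeb, Tfe3 and Mitf. The study profiled mouse neutrophils in 51 samples, of which 43 were RNA libraries and 8 were ATAC-seq samples (a measure of open chromatin). It compared neutrophils sorted from 4 tissues of mice with an inflamed air pouch, and neutrophils grown in culture with and without deletions of transcription factor genes.

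In the mice, labelled CX3CR1GFP Ly6GCre-tdTomato for the RNA samples, an air pouch 6 days old received 100 µg of zymosan, a yeast cell wall particle, and was harvested 4 hours later. Ly6G+ neutrophils were sorted from the pouch exudate (5 RNA libraries), blood (5), bone marrow (3) and pouch membrane (2) for small-bulk Smart-seq2 RNA-seq, and ATAC-seq was made from 75000 cells with 2 samples per tissue. All 4 tissues came from zymosan-treated animals, and no untreated animal was analysed here. The cultured cells were ER-Hoxb8 progenitors, which stay immature while estrogen keeps the Hoxb8 fusion protein active and which were matured for 5 days without estrogen in stem cell factor and G-CSF. They received DMSO (vehicle) or 50 µg/ml of zymosan for 2 hours, with 2 libraries per group. A first set held wild type cells and cells labelled CEBPB-/- and JUNB-/-. A second set held wild type cells and cells labelled IRF5-/- and RELB-/-. A later table held cells labelled RUNX1-/- and KLF6-/- in DMSO only, with the wild type counts of the second set repeated in it. How each deletion line was made, whether it is 1 clone, and whether the paired libraries came from separate cultures are not given in the sources used here, so p-values measure the spread between these libraries, which may be technical.

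The V-ATPase is a rotary motor. Its V1 sector hydrolyses ATP in the cytosol, and its V0 sector carries protons through the membrane of lysosomes, endosomes and phagosomes. The resulting acidity activates cathepsins and other hydrolases that break down ingested particles, and Tfeb, Tfe3 and Mitf bind the palindrome CACGTG in the promoters of many genes of this system. Neutrophils take up yeast particles such as zymosan into phagosomes, whose acidity was not measured here.

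Assigned read pairs per library, in units of 1e+06, ranged from 9.24 to 19.1 in the tissues, from 19.4 to 32.4 in the first culture set, from 24.0 to 34.3 in the second and from 26.8 to 30.1 in the later table. All 12 neutrophil markers examined were detected in every group. RNA of the targeted gene does not check the labels. It was present in every deletion line. It was lower than wild type in the lines labelled JUNB-/-, IRF5-/- and RELB-/-. It was higher in the lines labelled RUNX1-/- and KLF6-/-, against the label. In the line labelled CEBPB-/- the DMSO libraries overlapped wild type. Cebpb read 537 and 510 CPM (counts scaled by library size and edgeR's TMM factors) in DMSO libraries labelled CEBPB-/- against 479 and 536 in wild type, Runx1 read 136 and 134 in libraries labelled RUNX1-/- against 51.2 and 53.2, and Klf6 read 737 and 738 in libraries labelled KLF6-/- against 537 and 552. Without the TMM factors Cebpb would be lower in the DMSO libraries labelled CEBPB-/- than in wild type. Lines are therefore named by their labels, and every direction between lines rests on those labels. In bulk RNA, fewer cells of a type and less RNA per cell cannot be told apart.

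In wild type cells most of these genes were higher after 2 hours of zymosan on the TMM scale. In the first set 29 of the 40 genes were called higher and 6 lower at an adjusted p under 0.05 (edgeR's quasi-likelihood test), beside 35.7% and 39.9% of all 12899 genes tested. In the second set 28 were called higher and 8 lower, beside 36.3% and 32.1% of 13779 genes. The median log2 fold change of the 40 genes was 0.67 in the first set and 0.69 in the second, beside −0.07 and 0.05 over all genes. These directions are relative to the TMM scaling: total-count scaling moved all genes by −0.70 and −0.87 in the wild type comparisons and gave 19 higher and 19 lower in the first set, beside 18.7% and 64.0% of all genes, and 15 higher and 21 lower in the second, beside 13.3% and 68.0%. Fitted together, the response of the second wild type set was larger for 6 members and smaller for 20, beside 16.4% and 22.3% of all genes, and no difference reached 2-fold, beside 9.50% of all genes. Under total counts the median of the 40 genes was −0.03 and −0.19, beside −0.77 and −0.82 over all genes.

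Cell type markers moved with the treatment as well. The summed CPM of 8 dendritic cell markers was 108 to 110 in DMSO and 265 in zymosan libraries of the first wild type set, and 92.7 to 95.1 in DMSO and 309 to 311 in zymosan in the second. In the 6 cultures described next, 4 of the 8 were called higher in every one, beside 21.5% of all genes. With total counts 3 of the 6 tested were, beside 9.43% of all genes. The sum of 13 monocyte and macrophage markers was 1440 to 1464 in DMSO and 1642 to 1691 in zymosan in the first set, and 1173 to 1179 and 1340 to 1364 in the second. The sum of 10 eosinophil, basophil and mast cell markers was 1645 to 1648 in DMSO and 1389 to 1455 in zymosan in the first set, and 3487 to 3553 and 5534 to 5552 in the second. The sum of 12 neutrophil markers was 28075 to 29687 in DMSO and 24131 to 24396 in zymosan in the first set, and 51733 to 53939 and 70461 to 71832 in the second. On the TMM scale the last 2 sums were lower in zymosan in the first set and higher in the second. Without the TMM factors the dendritic sum would be higher in zymosan in both sets. The monocyte and macrophage, eosinophil, basophil and mast cell, and neutrophil sums would be lower. With total counts 0 of 12 neutrophil markers were called higher and 11 lower in the first set, beside 18.7% and 64.0% of all genes. In the second set 1 was called higher and 10 lower, beside 13.3% and 68.0%. The part of these markers in the zymosan response was not tested.

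The zymosan response was measured in 6 cultures that share no library, and 12395 genes were tested in all of them. Of the 40 genes, 24 were called higher in all 6 cultures (60.0%), beside 21.5% of all genes. Atp6v0a2, Atp6v1b2 and Tfeb were called lower in all 6 (7.50%), beside 22.3% of all genes. A rise of at least 2-fold in all 6 was found for 11 of the 40 genes (27.5%), beside 10.0% of all genes, and these were Atp6v1a, Atp6v1c1, Atp6v1d, Atp6v1e1, Atp6v1h, Atp6v0c, Atp6v0d1, Atp6ap2, Ctsz, Neu1 and Mitf. None fell 2-fold in all 6, beside 6.65% of all genes. With total-count scaling 13 genes were called higher in all 6 cultures, among them these 11, and 14 were called lower (32.5% and 35%), beside 9.43% and 48.7% of all genes.

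**Figure D1:**
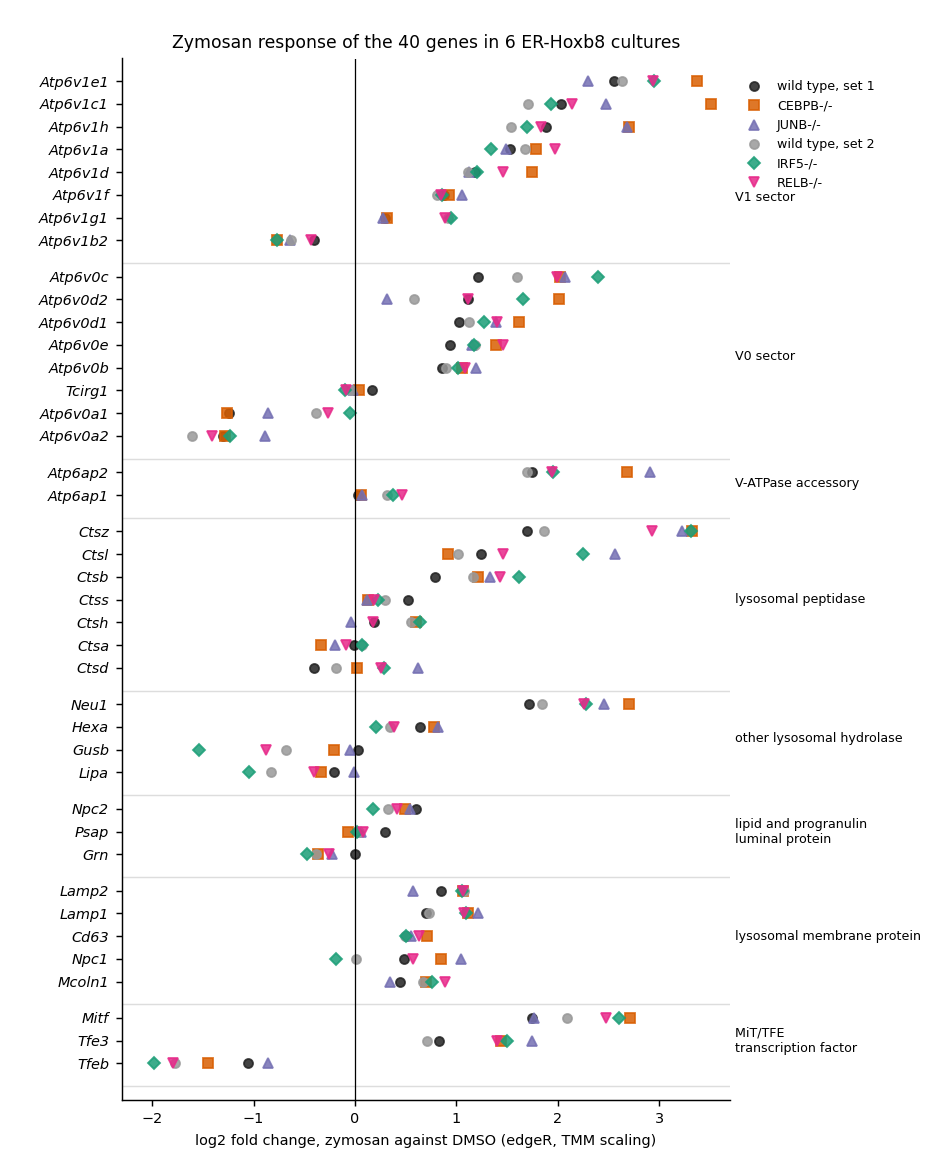
Log2 fold change of each of the 40 genes, zymosan against DMSO, on the horizontal axis, with genes in rows by role and 1 symbol for each of the 6 cultures (wild type in both sets and the lines labelled CEBPB-/-, JUNB-/-, IRF5-/- and RELB-/-). Atp6v1e1 lies between 2.30 and 3.37 and Atp6v0a2 between −1.61 and −0.89. Values are relative to TMM scaling; total-count scaling turns genes near 0 negative.

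The V1 sector, the ATP-hydrolysing part, held the gene with the largest rise of the 40 in both wild type sets. Atp6v1e1, which encodes a peripheral stalk subunit, read 201 and 198 CPM in wild type DMSO libraries of the first set and 1204 and 1146 in zymosan. It read 202 and 197 CPM in DMSO and 1224 and 1241 in zymosan in the second set. Both zymosan libraries of each set were far above both DMSO libraries, with log2 fold changes of 2.56 (SE 0.04, edgeR adjusted p 1.67e-53) and 2.63 (SE 0.02, edgeR adjusted p 7.16e-82). Atp6v1c1, the C subunit that joins stalk and head, read 83.4 and 84.9 CPM in DMSO and 356 and 330 in zymosan in the first set, a log2 fold change of 2.03 (SE 0.04). The groups did not overlap. Atp6v1a, the catalytic subunit, read 243 and 233 CPM in DMSO and 679 and 696 in zymosan in that set. Over the 6 cultures the log2 fold changes of Atp6v1a ran from 1.34 to 1.97, those of the regulatory subunit gene Atp6v1h from 1.54 to 2.70, and those of the central stalk gene Atp6v1d from 1.12 to 1.75. Atp6v1f (0.81 to 1.06) and the stalk gene Atp6v1g1 (0.28 to 0.95) rose less, and with total-count scaling their ranges were −0.08 to 0.39 and −0.61 to 0.04.

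Atp6v1b2, the B subunit that forms the catalytic head together with Atp6v1a, moved the other way. It read 346 CPM in both wild type DMSO libraries of the first set and 263 in both zymosan libraries, a log2 fold change of −0.40 (SE 0.03, edgeR adjusted p 1.11e-15). Its fold changes over the 6 cultures ran from −0.77 to −0.40. The summed CPM of the 8 V1 genes rose from 1149 to 1173 in DMSO libraries to 3013 to 3116 in zymosan libraries of the first wild type set, and from 1011 to 1019 to 2749 to 2767 in the second.

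The V0 sector, the membrane-embedded proton channel, split between its subunits. The proteolipid genes Atp6v0c and Atp6v0b, which line the rotor ring, rose in all 6 cultures, by 1.21 to 2.40 and 0.86 to 1.19 on the log2 scale. Atp6v0d1, which couples rotor and stalk, read 139 and 141 CPM in wild type DMSO and 286 and 284 in zymosan in the first set. Its groups did not overlap, and it rose by 1.03 to 1.62 over the 6 cultures, as did the small subunit gene Atp6v0e by 0.94 to 1.46. The 3 genes of the a subunit, which forms the proton path and directs the pump to its membrane, did not share this direction. Atp6v0a2 read 40.3 and 42.7 CPM in wild type DMSO and 16.3 and 17.3 in zymosan (log2 −1.30, SE 0.07), and fell in all 6 cultures, by values between −1.61 and −0.89. Atp6v0a1 read 193 and 195 CPM in DMSO and 81.7 and 82.6 in zymosan in the first wild type set and was called lower in 5 of the 6 cultures, from −1.26 to −0.05. Tcirg1, the a3 isoform of lysosomes and osteoclasts, stayed between −0.10 and 0.17. In wild type cells of the first set it was called higher at 0.17, which total-count scaling turned to −0.53. Atp6v0d2, the d isoform known from osteoclasts and dendritic cells, was scarce: 2.64 and 2.44 CPM in wild type DMSO and 6.04 and 5.07 in zymosan of the first set, and it was called higher in 2 of the 6 cultures.

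**Figure D2:**
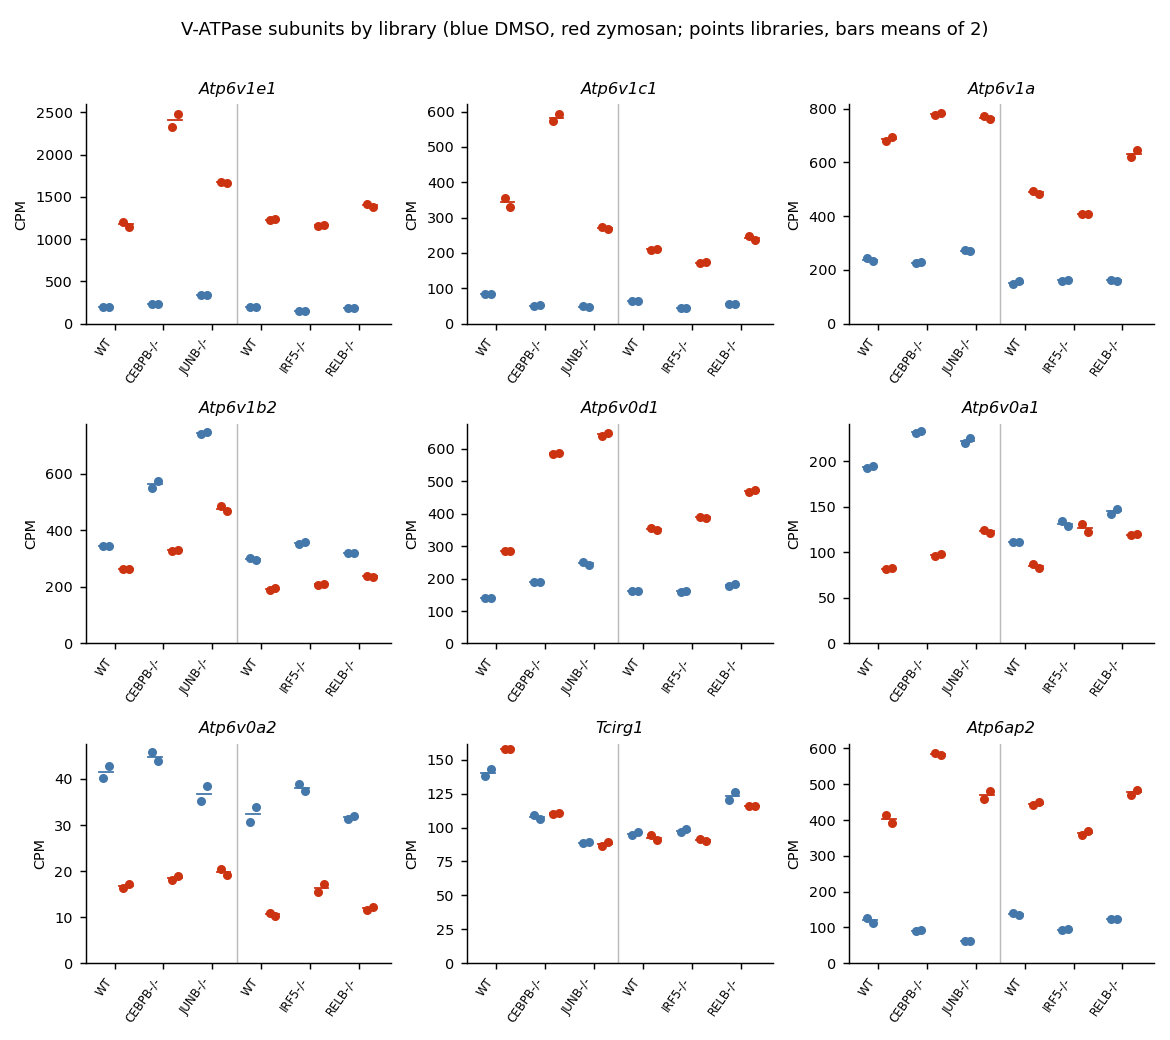
CPM of 9 V-ATPase genes in each library (points) with the mean of 2 (bars), DMSO in blue and zymosan in red, for the first set (left of the grey line) and the second (right), lines named by label. Atp6v1e1 moves from 201 and 198 to 1204 and 1146 CPM in the first wild type set, while Atp6v0a2 falls from 40.3 and 42.7 to 16.3 and 17.3.

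Of the accessory proteins, Atp6ap2, the prorenin receptor needed to assemble the pump, read 126 and 113 CPM in wild type DMSO and 415 and 393 in zymosan in the first set. The groups were far apart, and the log2 fold change was 1.75 (SE 0.04), with 1.70 to 2.91 over the 6 cultures. Atp6ap1 ranged from 0.03 to 0.46, and with total-count scaling from −0.87 to −0.43. Over all 18 pump genes, 14 were called higher and 3 lower in the first wild type set (median log2 0.99) and 13 and 3 in the second (1.02). These counts stand beside the shares of all genes given above for each set. Under total-count scaling 9 of the 18 were called higher in all 6 cultures, and these were Atp6v1a, Atp6v1c1, Atp6v1d, Atp6v1e1, Atp6v1h, Atp6v0c, Atp6v0d1, Atp6v0e and Atp6ap2. Atp6ap1, Atp6v0a1, Atp6v0a2, Atp6v1b2 and Tcirg1 were called lower in all 6 under that scaling. Of all genes, 9.43% were called higher and 48.7% lower in all 6.

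Promoter sequences are shown for 6 genes: the V1 gene with the largest rise in wild type cells and that of the catalytic subunit, 2 cathepsins and 1 transcription factor with open-chromatin sites at or near their starts, and the gene with most CACGTG matches. RefSeq windows on build GRCm38.p6, from 250 bases before to 50 bases after the annotated start, were matched for 31 of the 40 genes. Each line gives the 250 bases before the start, 5′ to 3′ on the gene's strand, with CACGTG in capitals where it occurs. They lie at chr6:120822699-120822948 (minus strand, Atp6v1e1), chr16:44139260-44139509 (minus, Atp6v1a), chr2:174439040-174439289 (minus, Ctsz), chr3:95526536-95526785 (plus, Ctss), chrX:7762411-7762660 (plus, Tfe3) and chr8:13158911-13159160 (plus, Lamp1).
Atp6v1e1: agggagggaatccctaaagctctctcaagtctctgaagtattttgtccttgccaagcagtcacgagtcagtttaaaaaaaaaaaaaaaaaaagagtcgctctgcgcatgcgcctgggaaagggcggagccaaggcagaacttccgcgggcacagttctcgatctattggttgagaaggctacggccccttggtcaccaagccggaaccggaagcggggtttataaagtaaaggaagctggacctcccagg
Atp6v1a: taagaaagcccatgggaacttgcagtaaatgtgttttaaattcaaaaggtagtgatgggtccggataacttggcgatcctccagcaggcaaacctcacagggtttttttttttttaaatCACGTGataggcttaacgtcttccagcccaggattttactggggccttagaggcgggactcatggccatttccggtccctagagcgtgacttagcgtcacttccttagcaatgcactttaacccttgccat
Ctsz: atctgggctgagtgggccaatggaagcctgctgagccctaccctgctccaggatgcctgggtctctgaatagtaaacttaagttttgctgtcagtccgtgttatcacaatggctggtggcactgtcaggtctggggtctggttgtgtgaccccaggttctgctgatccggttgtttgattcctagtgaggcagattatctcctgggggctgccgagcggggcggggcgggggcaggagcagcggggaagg
Ctss: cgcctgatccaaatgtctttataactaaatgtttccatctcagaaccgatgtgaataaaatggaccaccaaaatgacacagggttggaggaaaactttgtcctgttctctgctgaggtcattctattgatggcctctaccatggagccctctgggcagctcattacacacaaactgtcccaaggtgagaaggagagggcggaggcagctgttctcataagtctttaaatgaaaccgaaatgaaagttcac
Tfe3: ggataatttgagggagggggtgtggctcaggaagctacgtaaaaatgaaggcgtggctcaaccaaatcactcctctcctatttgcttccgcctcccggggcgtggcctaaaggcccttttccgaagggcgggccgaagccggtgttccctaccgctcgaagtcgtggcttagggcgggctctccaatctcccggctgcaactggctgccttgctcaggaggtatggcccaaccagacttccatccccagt
Lamp1: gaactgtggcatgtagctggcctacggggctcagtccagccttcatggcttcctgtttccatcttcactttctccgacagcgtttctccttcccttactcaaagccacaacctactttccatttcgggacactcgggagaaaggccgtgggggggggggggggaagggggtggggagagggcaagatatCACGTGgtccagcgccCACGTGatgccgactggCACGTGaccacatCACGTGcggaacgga
The letters CACGTG, which read the same on both strands, were found in the 300-base windows of 9 of the 31 genes (29.0%), beside 8.09% of all 27025 genes with windows. The 9 were Atp6v1a, Atp6v0b, Atp6v0d1, Atp6v0e, Ctsa, Ctsd, Ctsl, Lamp1 and Mcoln1. The longer TCACGTG, searched on both strands and always containing CACGTG, was found in 8 (25.8%), beside 4.29% of all genes with windows. By window, CACGTG was in 9 of 42 member windows and 7.15% of all 32851, and TCACGTG in 8 of 42 and 3.77%. Lamp1 holds 4 matches, 61, 45, 28 and 15 bases before its start, and Atp6v1a holds 1, 131 bases before. The printed Atp6v1e1, Ctsz, Ctss and Tfe3 stretches hold none. A match describes letters in a window and is not a measured binding site. Atp6v0a2, Npc1, Ctsb, Atp6v1h, Atp6v1g1, Ctsh, Atp6v1b2, Atp6v1c1 and Atp6v0d2 had no entry.

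Among the peptidases, 4 of 7 were called higher and 1 lower in the first wild type set (median log2 0.52), beside the shares of all genes given above for that set. Total-count scaling shifted all genes there by −0.70, more than this median. Ctsz, cathepsin Z, a carboxypeptidase, read 255 and 258 CPM in DMSO and 858 and 808 in zymosan in the first set, and 229 in both DMSO libraries and 833 and 829 in zymosan in the second. No library of 1 group reached the other, and the log2 fold changes were 1.70 (SE 0.03, edgeR adjusted p 3.54e-45) and 1.86 (SE 0.02, edgeR adjusted p 1.11e-71). Ctsb, a cysteine protease of endosomes and lysosomes, read 1561 CPM in both DMSO libraries and 2662 and 2720 in zymosan of the first set, and rose by 0.79 to 1.62 over the 6 cultures. Ctsl, cathepsin L, rose by 0.92 to 2.57 (−0.01 to 1.90 with total counts). Ctsd, the aspartic protease cathepsin D, moved up in some cultures and down in others, from −0.40 to 0.62 (−1.11 to −0.06 with total counts), and the protective protein gene Ctsa stayed between −0.33 and 0.07.

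Among the other hydrolases, Neu1, the lysosomal sialidase, rose from 99.6 and 103 CPM to 347 and 323 in the first wild type set, with a log2 fold change of 1.72 (SE 0.04) and 1.72 to 2.70 over the 6 cultures. Hexa, a subunit of β-hexosaminidase, ranged from 0.21 to 0.82, and with total-count scaling from −0.73 to 0.14. Gusb (β-glucuronidase) and Lipa (acid lipase) ranged from −1.54 to 0.03 and from −1.04 to −0.01. Of the luminal proteins, the cholesterol carrier Npc2 ranged from 0.18 to 0.60 (−0.75 to −0.10 with total counts), the saposin precursor Psap from −0.07 to 0.30 and the progranulin gene Grn from −0.47 to 0.00. The 5 membrane genes were all called higher in the first wild type set (median log2 0.50), beside the shares of all genes given above for that set. This median is smaller in size than the shift of −0.70 that total-count scaling gave all genes there. Lamp1 and Lamp2, the abundant glycoproteins of the lysosomal membrane, rose by 0.70 to 1.21 and 0.57 to 1.08 over the 6 cultures, with total-count ranges of −0.14 to 0.54 and −0.10 to 0.20. The tetraspanin gene Cd63 ranged from 0.49 to 0.71 and the calcium channel gene Mcoln1 from 0.35 to 0.89, and with total counts from −0.44 to −0.12 and from −0.32 to 0.00. Npc1, the membrane cholesterol exporter, ranged from −0.19 to 1.05 (−1.13 to 0.37 with total counts).

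The 3 transcription factors of this gene system went different ways. Mitf read 48.4 and 48.7 CPM in wild type DMSO and 159 and 167 in zymosan of the first set, and 22.6 and 24.3 then 97.9 and 102 in the second. Its groups did not overlap in either set, and its log2 fold changes ran from 1.75 to 2.71 over the 6 cultures. Tfeb read 45.5 and 51.3 CPM in DMSO and 24.0 and 22.8 in zymosan of the first set, and 57.1 and 57.8 then 15.5 and 18.1 in the second. It was lower in every zymosan library of both wild type sets, with log2 fold changes of −1.05 (SE 0.07) and −1.77 (SE 0.06) and −1.98 to −0.86 over the 6 cultures. Tfe3 read 108 and 114 CPM in DMSO and 197 in both zymosan libraries of the first set, and ranged from 0.71 to 1.75 over the 6 cultures (−0.17 to 1.07 with total counts). Its rise in the second wild type set, 0.71, became −0.17 with total-count scaling. These are RNA levels; the factors are also controlled by phosphorylation and nuclear entry, which these files do not measure.

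**Figure D3:**
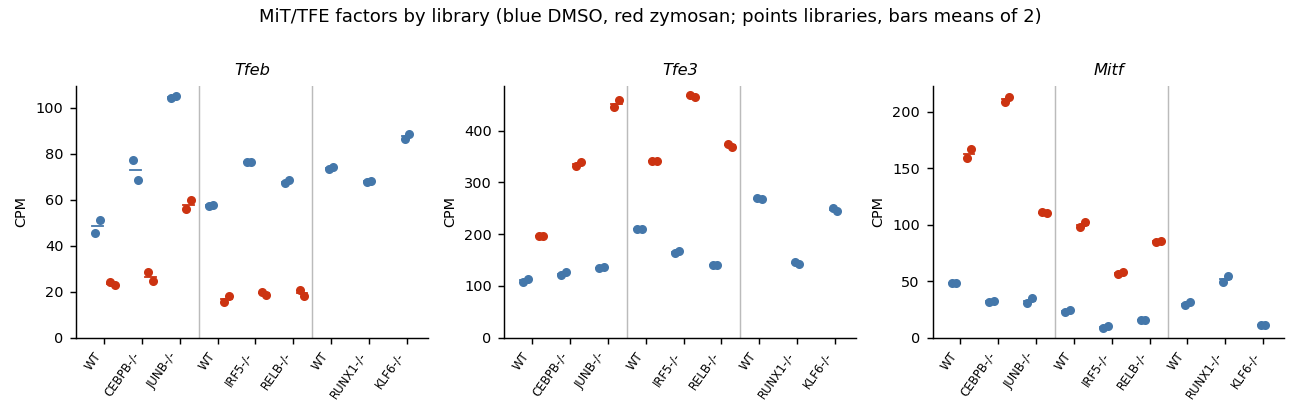
CPM of Tfeb, Tfe3 and Mitf in each library (points) with the mean of 2 (bars), DMSO in blue and zymosan in red. The grey lines separate the first set, the second set and the later table (DMSO only), and lines are named by label. Mitf is higher and Tfeb lower in zymosan in every culture, and Mitf reads 11.4 and 10.7 CPM in the line labelled KLF6-/- against 28.9 and 31.1 in wild type.

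Per kilobase of exon, the most abundant of the 40 genes in wild type DMSO cells of the first set were Ctsd at 749 CPM per kb, Psap at 729, Ctsb at 329, Ctss at 200 and Lamp1 at 195 (means of 2). After zymosan the order was Psap at 894, Ctsz at 578, Ctsb at 568, Ctsd at 567 and Lamp1 at 316 CPM per kb. In the second set Ctsd led in both treatments, at 733 CPM per kb in DMSO and 643 in zymosan, and Ctsz moved from 159 to 577. On the TMM scale the summed CPM of the 40 genes, not corrected for length, was higher in zymosan in both sets. In the first set it was 11330 to 11375 in DMSO and 17458 to 17461 in zymosan. In the second set it was 9067 to 9135 in DMSO and 14967 to 15023 in zymosan. Without the TMM factors the sum of the 40 genes would be lower in zymosan than in DMSO in both sets.

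Other genes of the lysosome moved in both directions on the TMM scale. Among 37 other lysosomal hydrolases, of which 36 were tested, 19 were called higher and 13 lower in the first wild type set (median log2 0.15), beside 35.7% and 39.9% of all genes. With total counts the split was 9 and 24, beside 18.7% and 64.0%. In all 6 cultures 15 were called higher and 7 lower, beside 21.5% and 22.3% of all genes, and with total counts 6 and 19, beside 9.43% and 48.7%. The α-galactosidase gene Gla rose by 2.68 to 4.90 and Ctsc, the dipeptidyl peptidase that activates neutrophil serine proteases, by 1.09 to 3.22. The acid sphingomyelinase gene Smpd1 fell, between −2.51 and −1.52, as did the sulfamidase gene Sgsh, between −3.82 and −1.39. Acp5, tartrate-resistant acid phosphatase and also an osteoclast marker, rose by 5.65 to 10.76.

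Of 19 other V-ATPase subunits and assembly factors, 11 were tested in the first set, with 5 higher and 4 lower in wild type (median log2 0.09). Ncoa7, a TLDc protein that binds the pump, rose by 1.30 to 3.56, while Atp6v1g2 fell, between −1.46 and −0.93. Of 20 genes of mTORC1 at the lysosome and control of Tfeb, 10 were called higher and 7 lower in the first wild type set. Folliculin (Flcn, 1.44 to 3.38), its partner Fnip1 (1.53 to 2.81), the Rag GTPase gene Rragc (1.48 to 2.68) and Tfec (2.41 to 3.35), another gene of the Tfeb family, rose by at least 2-fold in all 6 cultures. Of 22 sorting genes, 11 were higher and 7 lower, and Rab7 (2.02 to 3.42), M6pr (2.41 to 4.27) and Vps18 (2.21 to 3.83), which act in transport to lysosomes, rose in all 6. Of 7 cathepsin inhibitor genes, 5 were higher and none lower, led by Cst7 (2.47 to 4.85) and Cstb (1.49 to 2.73). Of 29 other membrane and transport genes, 26 were tested, with 12 higher and 12 lower. The endolysosomal channel gene Mcoln2 rose by 2.07 to 4.20 and the chloride transporter gene Clcn7 by 1.57 to 1.96. Of 20 autophagy genes 9 were higher and 8 lower, with the receptor Sqstm1 up by 2.74 to 5.23 and Rubcn, an inhibitor of autophagosome maturation, down between −3.20 and −1.18. The higher and lower counts of these 6 lists in the first wild type set stand beside the same 35.7% and 39.9% of all genes. With total counts they were 2 and 7, 8 and 12, 4 and 16, 2 and 5, 9 and 17, and 5 and 15 in the order given, beside 18.7% and 64.0%. All 20 genes named from the other lists were called in the same direction in all 6 cultures with total counts. There the smallest rises of Ctsc, Ncoa7, Flcn, Fnip1 and Rragc were 0.34, 0.41, 0.56, 0.60 and 0.61.

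All 4 deletion lines tested with zymosan had more of the 40 genes called higher than lower after zymosan on the TMM scale. In cells labelled CEBPB-/- 27 were called higher and 9 lower (35.1% and 38.4% of all genes), in cells labelled JUNB-/- 26 and 6 (36.5% and 36.7%), in cells labelled IRF5-/- 29 and 8 (34.3% and 35.4%) and in cells labelled RELB-/- 29 and 9 (35.2% and 37.5%). The medians were 0.89, 0.72, 0.90 and 0.89 on the log2 scale, beside −0.09, −0.01, −0.02 and −0.05 over all genes. At 2-fold or more, 21, 19, 22 and 20 members were called, beside 43.8%, 39.7%, 36.3% and 37.5% of all genes, and 16 and 17 in the first and second wild type sets, beside 36.6% and 29.1%. Total-count scaling shifted all genes in these 4 comparisons by −0.92, −0.67, −0.93 and −0.89 and gave 18 higher and 18 lower (18.8% and 62.8% of all genes), 20 and 17 (21.9% and 57.1%), 18 and 18 (14.4% and 67.5%), and 18 and 18 (15% and 68.1%).

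Whether the response differed between a line and wild type was tested as an interaction. The interactions of 1 set share the wild type libraries of that set and are set side by side only. For the line labelled CEBPB-/- the response was called larger (more positive) for 22 genes and smaller for 8, beside 24.4% and 16.7% of all genes, and total-count scaling gave 16 and 15, beside 15.6% and 29.9%. For cells labelled JUNB-/- the counts were 20 and 8, beside 28.1% and 15.4% (16 and 11 under RLE scaling). For cells labelled IRF5-/- they were 17 and 7, beside 16.5% and 16.8% (14 and 11 under total counts, beside 13.5% and 21%, and 19 and 3 under RLE). For cells labelled RELB-/- they were 24 and 3, beside 16.1% and 15.3% (29 and 0 under RLE).

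An interaction of at least 2-fold was found for 2 members in cells labelled CEBPB-/- (11.2% of all genes), 4 in cells labelled JUNB-/- (12.6%), 2 in cells labelled IRF5-/- (7.73%) and 1 in cells labelled RELB-/- (6.59%). Ctsz was among them in all 4 lines. It rose from 188 and 181 to 1839 and 1851 CPM in the line labelled CEBPB-/-, and from 109 and 110 to 1023 and 1032 in cells labelled JUNB-/-. It rose from 81.7 and 80.3 to 796 and 812 CPM in cells labelled IRF5-/-, and from 99.1 and 100 to 753 and 764 in cells labelled RELB-/-. In each of the 4 lines its DMSO level was below wild type. The interactions were 1.62 (SE 0.05), 1.53 (SE 0.05), 1.45 (SE 0.03) and 1.07 (SE 0.03) on the log2 scale. Ctsl rose from 65.9 and 67.0 to 396 and 394 CPM in cells labelled JUNB-/-, against 259 and 262 to 623 and 611 in wild type, an interaction of 1.33 (SE 0.05). In cells labelled IRF5-/- it rose from 78.8 and 74.1 to 373 and 355, against 207 and 205 to 410 and 425, an interaction of 1.24 (SE 0.04). In both lines Ctsl stayed below wild type in either treatment.

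In the line labelled CEBPB-/- the V1 gene Atp6v1c1 rose from 50.7 and 51.6 to 573 and 593 CPM, starting below wild type and ending above it, with an interaction of 1.49 (SE 0.06). Atp6v1e1 rose there from 231 and 234 to 2332 and 2478 CPM, an interaction of 0.81 (SE 0.05). In cells labelled JUNB-/- Atp6v1e1 rose from 344 and 337 to 1682 and 1661, a smaller response than in wild type by 0.26 on the log2 scale (interaction −0.26, SE 0.05). Atp6ap2 rose from 63.3 and 62.0 to 458 and 481 CPM in cells labelled JUNB-/- (interaction 1.15, SE 0.06). Ctsd read 2028 and 2053 CPM there in DMSO and 3151 and 3119 in zymosan, against 1726 and 1798 then 1355 and 1309 in wild type (interaction 1.02, SE 0.04).

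The lines also differed from wild type before zymosan. In DMSO, 18 genes were called higher and 20 lower in cells labelled CEBPB-/- (33.6% and 36.9% of all genes), 16 and 21 in cells labelled JUNB-/- (35.4% and 41.1%), 11 and 25 in cells labelled IRF5-/- (35% and 29.6%) and 17 and 16 in cells labelled RELB-/- (32.1% and 27.3%). Total-count scaling shifted all genes by −0.35, −0.55, −0.11 and −0.02 and gave 9 and 28 (17.1% and 56.4% of all genes), 7 and 32 (16.7% and 65.1%), 6 and 29 (27.0% and 35.9%), and 17 and 16 (31% and 28.1%). The median of the 40 genes was −0.03, −0.13, −0.21 and 0.01, beside −0.05, −0.12, 0.04 and 0.04 over all genes. In zymosan the counts were 27 and 9 in cells labelled CEBPB-/- (35% and 32.9% of all genes), 23 and 16 in cells labelled JUNB-/- (39.1% and 37.4%), 12 and 20 in cells labelled IRF5-/- (29.6% and 30.8%) and 29 and 4 in cells labelled RELB-/- (27.1% and 28.9%), and with total counts 11 and 23 (14% and 60.7%), 9 and 28 (21.9% and 56.8%), 7 and 29 (19.9% and 41.2%), and 29 and 6 (25% and 30.9%). In cells labelled RELB-/- 15 of the 18 pump genes were called higher than wild type in zymosan and none lower.

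Ctsh, cathepsin H, an aminopeptidase, was lower than wild type in all 6 lines in DMSO. It read 15.5 and 15.3 CPM in wild type of the first set, 0.707 and 0.855 in cells labelled CEBPB-/- and 0.638 and 0.779 in cells labelled JUNB-/-. It read 24.3 and 24.1 in wild type of the second set, 1.73 and 2.12 in cells labelled IRF5-/- and 2.91 and 2.81 in cells labelled RELB-/-. In the later table, where the same wild type counts scale to 31.1 and 30.9 CPM, it read 16.2 and 15.3 in cells labelled RUNX1-/- and 2.32 and 2.66 in cells labelled KLF6-/-. No line overlapped its wild type, and the log2 differences were −4.29 (SE 0.16), −4.44 (SE 0.16), −3.65 (SE 0.11), −3.08 (SE 0.10), −0.98 (SE 0.07) and −3.64 (SE 0.10), with edgeR adjusted p of 1.61e-17 or less.

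Ctss, cathepsin S, the protease that processes the invariant chain of MHC class II, was lower in 4 of the 6 lines. It read 277 and 267 CPM in wild type of the first set, 81.9 and 85.1 in cells labelled CEBPB-/- and 33.6 and 32.2 in cells labelled JUNB-/- (log2 −1.70 and −3.04, SE 0.04 and 0.05). It read 138 in both wild type libraries of the second set, 31.4 and 34.5 in cells labelled IRF5-/- (log2 −2.07, SE 0.04) and 178 and 185 in cells labelled RELB-/- (log2 0.39, SE 0.03). Against 177 in both wild type libraries of the later table, it read 283 and 288 in cells labelled RUNX1-/- (log2 0.69, SE 0.03) and 56.0 and 51.5 in cells labelled KLF6-/- (log2 −1.72, SE 0.03). Cell type markers moved as well. The 12 neutrophil markers summed in DMSO to 28075 to 29687 CPM in wild type of the first set, 60326 to 61562 in cells labelled CEBPB-/- and 84846 to 92192 in cells labelled JUNB-/-, and to 51733 to 53939 in wild type of the second set, 67412 to 69643 in cells labelled IRF5-/- and 59017 to 59357 in cells labelled RELB-/-. The summed CPM of the 8 dendritic cell markers was 108 to 110 in wild type of the first set, 73.8 to 74.3 in cells labelled CEBPB-/- and 2.75 to 2.99 in cells labelled JUNB-/-, where H2-Aa, H2-Ab1, H2-Eb1 and Xcr1 were at 0. It was 92.7 to 95.1 in wild type of the second set, 40.9 to 42.5 in cells labelled IRF5-/- and 24.1 to 24.4 in cells labelled RELB-/-. The sum of 10 eosinophil, basophil and mast cell markers was 1645 to 1648 in wild type of the first set, 518 to 539 in cells labelled CEBPB-/- and 224 to 229 in cells labelled JUNB-/-, and 3487 to 3553 in wild type of the second set, 653 to 661 in cells labelled IRF5-/- and 429 to 436 in cells labelled RELB-/-. The sum of 13 monocyte and macrophage markers was 1440 to 1464, 1292 to 1294 and 1223 to 1234 in the first set, and 1173 to 1179, 781 to 785 and 1032 to 1035 in the second, in the same order. Their part in the Ctsh and Ctss differences was not tested.

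**Figure D4:**
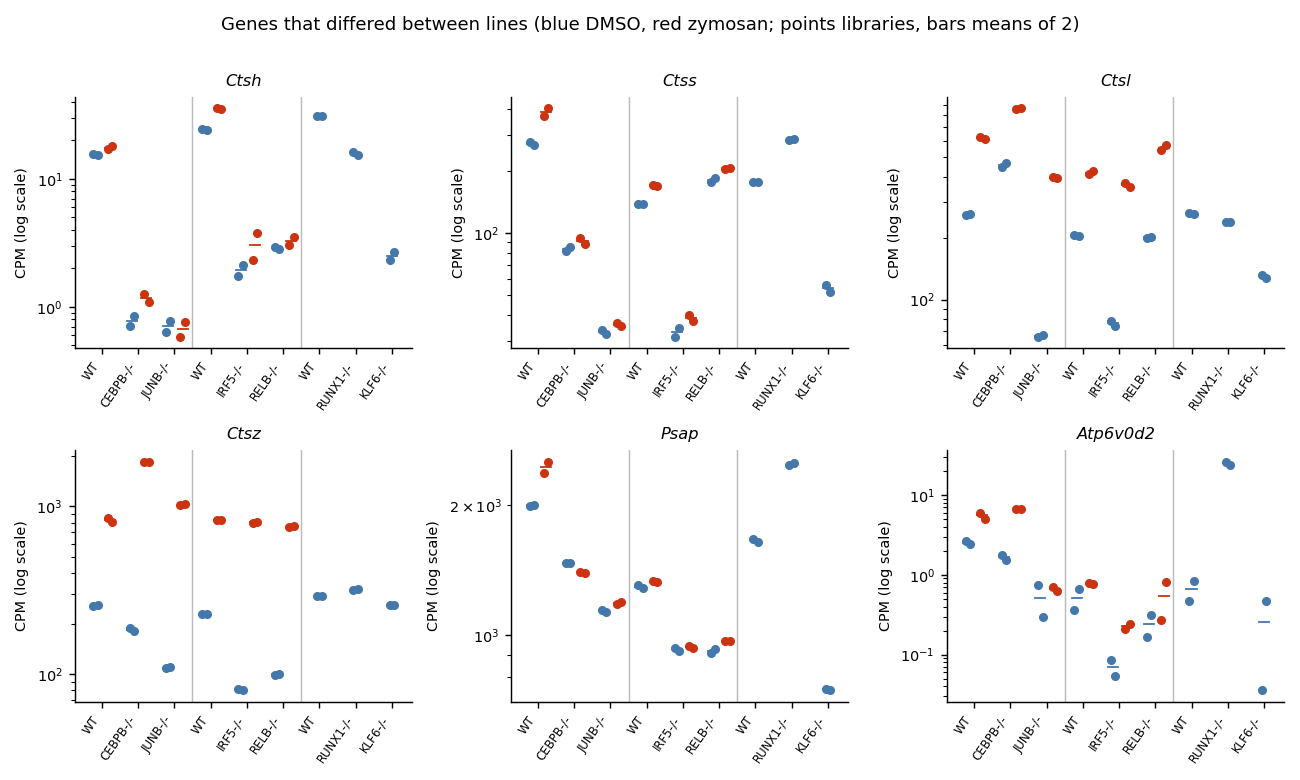
CPM (log axis) of 6 genes in each library (points) with the mean of 2 (bars), DMSO in blue and zymosan in red, for the first set, the second set and the later table (DMSO only), separated by grey lines, lines named by label. Ctsh lies below wild type in all 6 lines in DMSO, and Atp6v0d2 reads 26.3 and 23.6 CPM in the line labelled RUNX1-/- against 0.468 and 0.843 in wild type.

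Other members differed from wild type by at least 2-fold in DMSO. With Ctsh and Ctss counted, 2 members did so in cells labelled CEBPB-/- (24.9% of all genes), 9 in cells labelled JUNB-/- (35.4%), 6 in cells labelled IRF5-/- (19.6%) and 3 in cells labelled RELB-/- (15.2%). In cells labelled JUNB-/- these were Tfeb (log2 1.12), Atp6v1b2 (1.10) and Atp6v1g1 (1.05) on the high side and Ctsz (−1.23), Gusb (−1.35), Ctsl (−1.97) and Atp6v0d2 (−2.26) on the low side. In cells labelled IRF5-/- Mitf (−1.32), Ctsl (−1.43), Ctsz (−1.50) and Atp6v0d2 (−2.84) were lower, and in cells labelled RELB-/- Atp6v0d2 (−1.11) and Ctsz (−1.20). In cells labelled CEBPB-/- only Ctsh and Ctss reached 2-fold in DMSO, while in zymosan Ctsz (1.15), Ctsd (1.08), Atp6v0d1 (1.04) and Atp6v1e1 (1.03) were higher and Ctss (−2.08) and Ctsh (−3.88) lower, 6 members beside 27.7% of all genes. In zymosan, 13 members differed by 2-fold in cells labelled JUNB-/- (38.9% of all genes). Tfeb (1.31), Ctsd (1.24), Neu1 (1.22), Tfe3 (1.20), Atp6v0d1 (1.18), Atp6v0c (1.10), Atp6v1g1 (1.03) and Atp6v0e (1.01) were higher, and Psap (−1.05), Gusb (−1.43), Atp6v0d2 (−3.05), Ctss (−3.44) and Ctsh (−4.67) lower. In cells labelled IRF5-/- these were Atp6v0d2 (−1.75), Ctss (−2.14) and Ctsh (−3.56), beside 20.5% of all genes, and in cells labelled RELB-/- Ctsh alone (−3.45), beside 16.3%. Total-count scaling shifted all genes in cells labelled JUNB-/- by −0.55 in DMSO and −0.52 in zymosan. In cells labelled CEBPB-/- in zymosan it shifted them by −0.58. With these shifts no rise listed for those comparisons would reach 2-fold, and the falls would be larger. Atp6v0d2 read under 1 CPM in all libraries of the second set, and its differences there rest on few counts. The one in cells labelled RELB-/- in DMSO was not called without wild type library 2 (−0.62), without the first library labelled RELB-/- (−0.72) or by DESeq2 (−1.11). The one in cells labelled IRF5-/- in zymosan was not called without either library labelled IRF5-/- (−1.62 and −1.82) or by DESeq2 (−1.72).

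Cells labelled RUNX1-/- had 28 of the 40 genes higher than wild type and 9 lower in DMSO, beside 38.4% and 36% of all genes (37 and 2 with total counts, which shifted all genes by 0.34, beside 55.8% and 22.6%). The median was 0.21 on the log2 scale, beside 0.02 over all genes. Among the 18 pump genes 13 were called higher and 2 lower. Atp6v0d2 read 26.3 and 23.6 CPM against 0.468 and 0.843 in wild type, a log2 difference of 5.22 (SE 0.17, edgeR adjusted p 7.82e-29). Tcirg1 read 250 CPM in both libraries against 121 and 124 (log2 1.03, SE 0.03), and Atp6v0a1 read 249 and 250 against 143 in both (log2 0.81, SE 0.03). These 3 genes encode alternative d and a subunits of the V0 sector, and in each the groups did not overlap. Cd63 read 288 and 293 CPM against 114 and 108 (log2 1.39, SE 0.03), and it, Atp6v0d2 and Tcirg1 were the 3 members that differed by 2-fold, beside 27.6% of all genes. Mitf was higher (49.0 and 54.9 against 28.9 and 31.1 CPM) and Tfe3 lower (146 and 142 against 269 and 267 CPM).

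This line was also the one in which all 12 neutrophil markers were called lower than wild type on the TMM scale. Their median log2 difference was −2.41 and their summed CPM 17999 to 18085 against 66227 to 69081. With total counts 1 was called higher and 11 lower (median −2.07), beside 55.8% and 22.6% of all genes. The dendritic cell markers summed to 445 to 446 CPM against 119 to 122, the monocyte and macrophage markers to 1595 to 1601 against 1501 to 1510 and the eosinophil, basophil and mast cell markers to 730 to 740 against 4464 to 4551. The granulocyte progenitor markers summed to 40.9 to 42.6 CPM against 124 in both wild type libraries. The 8 fibroblast and endothelium markers summed to 196 to 199 against 26.7 to 27.7, with Col1a2, Col3a1, Dcn, Pdgfra, Cdh5 and Kdr at 0. Their part in the results for this line was not tested. Of 10 osteoclast and multinucleation genes 6 were tested, with 1 called higher and 3 lower (2 and 2 with total counts). Tnfrsf11a, the RANK receptor, was lower (log2 −4.74), as was Mmp9 (−0.93), while Itgb3 was higher (0.84). The third lower call, Nfatc1 at −0.08, was smaller than the shift of 0.34 that total counts gave all genes. Of 20 autophagy genes 3 were higher and 14 lower (9 and 10 with total counts). These counts stand beside the shares of all genes given above for this line. Other lists leaned higher with total counts: 26 of 36 other lysosomal hydrolases were higher and 7 lower. Sorting genes gave 20 and 2 of 22, and genes of mTORC1 and Tfeb control 19 and 1 of 20. Other membrane and transport genes gave 16 and 9 of 26, other pump genes 6 and 3 of 11, and cathepsin inhibitors 3 and 4 of 7.

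In cells labelled KLF6-/- 13 of the 40 genes were higher and 17 lower, beside 30.8% and 34.6% of all genes (6 and 27 with total counts, which shifted all genes by −0.15, beside 22.2% and 44.6%). The median, −0.04, was that of all genes, and the pump genes were 6 higher and 6 lower. Ctsa read 467 and 471 CPM against 203 and 198 in wild type (log2 1.23, SE 0.02), and Gusb read 140 and 148 against 66.4 and 65.5 (log2 1.13, SE 0.04). Psap read 751 and 745 CPM against 1672 and 1646 (log2 −1.15, SE 0.02), Ctsl 132 and 128 against 266 and 263 (log2 −1.03, SE 0.03) and Mitf 11.4 and 10.7 against 28.9 and 31.1 (log2 −1.44, SE 0.08). None of these groups overlapped. With Ctsh, Ctss and Atp6v0d2 (−1.38), 8 members differed by 2-fold, beside 20.5% of all genes. The Atp6v0d2 difference was not called without the first library labelled KLF6-/- (−0.49), without wild type library 2 (−0.88) or by DESeq2 (−1.31). The monocyte and macrophage markers summed to 1106 to 1109 CPM against 1501 to 1510, with 12 of 13 called lower, and the eosinophil, basophil and mast cell markers to 542 to 551 against 4464 to 4551. The dendritic markers summed to 56.4 to 58.1 against 119 to 122, the granulocyte progenitor markers to 74.9 to 79.7 against 124 and the neutrophil markers to 83578 to 87733 against 66227 to 69081. Their part was not tested. The RUNX1-/- and KLF6-/- comparisons share the wild type libraries.

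In sorted neutrophils from the tissues, edgeR called no member in any of the 6 pairwise comparisons, and libraries of the same tissue differed widely. Of all 12330 genes tested, 0.0162% were called between blood and bone marrow, 0% between exudate and blood, 0.178% between exudate and bone marrow, 0% between membrane and blood, 0.0162% between membrane and bone marrow and 0% between exudate and membrane. At an unadjusted p under 0.05 the counts of members were 3, 1, 3, 4, 7 and 1 in that order, of 39 tested. Atp6v0d2 was below the count filter here. The tissue column names also carry an m number, and 5 combinations of tag (100 or 300) and m number occur in more than 1 tissue. Whether they mark the same mouse is not stated, and this fit does not use them. DESeq2 called 1, 0, 2, 1, 2 and 1. The edgeR fit had a common biological coefficient of variation of 1.86, beside 0.0278 and 0.0190 in the culture sets.

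Ctss, Lamp2, Ctsz and Ctsh spread widely between tissues. Ctss read 1.59, 0.0883 and 0.629 CPM in bone marrow and 1380 and 305 in membrane. It read 422, 803, 1.79, 64.4 and 0.241 in blood and 405, 155, 122, 266 and 0.306 in exudate. Bone marrow was below both membrane libraries, while blood and exudate each held libraries at both ends, and the membrane against bone marrow difference of 10.06 on the log2 scale had an SE of 2.60 (edgeR adjusted p 0.185). Lamp2 read 249, 331 and 375 CPM in bone marrow, 3240 and 3965 in membrane, 2340, 712, 2023, 2749 and 851 in exudate and 3536, 3722, 300, 537 and 584 in blood. Every membrane and exudate library exceeded every bone marrow library, and the membrane difference was 3.50 (SE 0.93, edgeR adjusted p 0.200). Ctsz read 803 and 546 CPM in membrane, 120, 35.5 and 32.4 in bone marrow, 67.1, 102, 8.16, 22 and 35.3 in blood and 712, 551, 330, 8.91 and 11.8 in exudate. Membrane lay above bone marrow and blood, and exudate overlapped all 3 other tissues. Ctsh, at 0 and 0.171 CPM in membrane, read 271, 15.8 and 118 in bone marrow, so these groups did not overlap either.

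Across the 40 genes, membrane libraries lay wholly above bone marrow for 12 members and wholly below for 7, while 31.6% of all genes did not overlap in this comparison of 2 libraries with 3. The 12 were Atp6v1a, Atp6v0c, Atp6v0d1, Atp6ap2, Ctsb, Ctsd, Ctss, Ctsz, Lamp2, Npc1, Npc2 and Neu1. The 7 were Atp6v1g1, Atp6v0a1, Atp6v0a2, Ctsh, Ctsl, Cd63 and Tcirg1, of which Atp6v0a1 was apart only by 7.346 against 7.355 CPM. Membrane lay above blood for 7 members (Atp6v0d1, Atp6ap2, Ctsb, Ctsd, Ctsz, Npc2 and Neu1) and below for 4 (Atp6v1g1, Atp6v0a1, Ctsh and Tcirg1), with 12.6% of all genes apart. Exudate lay above bone marrow for Atp6v0d1, Ctsb and Lamp2 and below for Atp6v0a2 and Atp6v0b (11.7% of all genes apart). Blood lay above bone marrow for Atp6v0a1 and below for Cd63 (4.98%). Exudate lay above membrane for Cd63 and below for Lamp2 and Npc2 (5.88%), and exudate and blood overlapped for every member tested (2.17%). Atp6v0d1, whose rise with zymosan in culture is given above, read 174, 157 and 128 CPM in bone marrow, 109, 94.2, 95.8, 180 and 244 in blood, 401 and 308 in membrane and 275, 356, 436, 220 and 198 in exudate. Atp6v0a1 read 7.35, 11 and 20.9 CPM in bone marrow, 60.6, 22, 54.0, 93.2 and 53.2 in blood, 2.36 and 7.35 in membrane and 2.97, 132, 6.82, 43.0 and 119 in exudate. All membrane and exudate libraries exceeded bone marrow for Atp6v0d1, while for Atp6v0a1 the membrane libraries were low and the exudate libraries far apart. The summed CPM of the 40 genes was 3743 to 4269 in bone marrow, 4296 to 8483 in blood, 5698 to 8697 in exudate and 10760 to 12218 in membrane. Per kilobase, Ctss (620 CPM per kb), Ctsz (468), Ctsd (420) and Lamp2 (377) led the means of the membrane libraries, followed by Atp6v1g1 (250). The lead of Ctss rested on 1 library: it stood at 1016 and 225 CPM per kb, and in the library at 225 Lamp2 (415) and Ctsz (379) were higher. Atp6v1g1 led in bone marrow (449 CPM per kb), blood (471) and exudate (697). The exudate value fell to 323 without exudate library 5, still the highest of the 40 means. After it came Atp6v0b (225), Atp6v1f (185), Atp6v0e (143) and Atp6v0d1 (85.5) in bone marrow, Atp6v1f (226), Ctss (190), Lamp2 (182) and Atp6v0b (160) in blood, and Atp6v1f (276), Ctsz (224), Lamp2 (182) and Atp6v0e (172) in exudate. All column names of membrane libraries carry the tag 300 and all of bone marrow the tag 100, whose meaning is not stated, so tissue and tag cannot be told apart in that comparison. Within blood, the libraries tagged 100 had a mean Lamp2 of 2520 CPM (300 to 3722) and those tagged 300 of 561 (537 to 584). Neutrophil markers summed to 110701 to 158295 CPM in membrane, 293290 to 364492 in bone marrow, 212210 to 322533 in blood and 86467 to 365578 in exudate. Dendritic cell markers summed to 180 to 253 CPM in membrane, 0.172 to 130 in bone marrow, 2.83 to 68.5 in blood and 0.918 to 419 in exudate, and monocyte and macrophage markers to 1935 to 2202, 1264 to 1438, 1069 to 2297 and 1269 to 2364. Their part in these values was not tested.

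**Figure D5:**
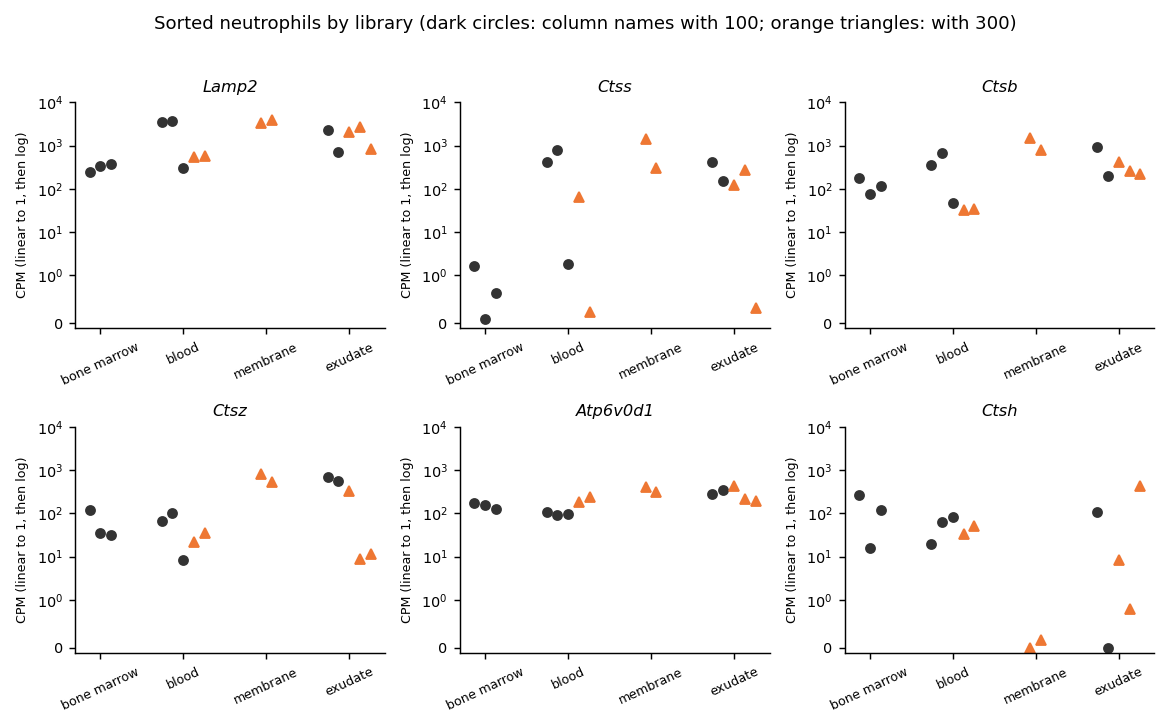
CPM of 6 genes in each sorted neutrophil library, by tissue (vertical axis linear to 1 and logarithmic above); dark circles are libraries with the tag 100 in their column names and orange triangles those with 300. Ctss spans 0.241 to 803 CPM within blood, and Lamp2 in membrane (3240 and 3965) lies above bone marrow (249 to 375).

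Open chromatin was compared from the authors' deposited lists of differentially accessible sites, which hold no values per library. A site of the authors' deposited merged list lay within 1000 bp of the start of 37 of the 40 genes (92.5%), beside 69.5% of the 12330 genes tested in the tissue RNA. The exceptions were Atp6v0d2, Atp6v1h and Cd63. A differential site in the authors' deposited tables lay within 1000 bp of 6 of the 40 (Atp6v0a1, Atp6v0d1, Atp6v0e, Ctss, Ctsz and Tfe3), beside 8.30% of genes. Within 50000 bp it was 25 of 40, beside 49.4%. Over that distance the authors' deposited tables placed sites more accessible in exudate than bone marrow near 17 members (28.2% of genes) and less accessible near 4 (17.7%). For membrane against bone marrow the authors' deposited tables gave 19 (25.3%) and 5 (16.1%), for exudate against blood 14 (20.6%) and 4 (9.29%), for membrane against blood 11 (17.4%) and 4 (7.63%), and for blood against bone marrow 7 (4.88%) and 0 (3.54%). These comparisons share samples, and 1 gene can count in both directions.

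The site at the Ctss start, chr3:95526469-95527051 (build mm10), covers the Ctss promoter printed above. In the authors' deposited tables it was more accessible in exudate than blood (−log10 adjusted p 7.07) and bone marrow (4.76), and in membrane than blood (4.50) and bone marrow (2.65). At Ctsz a site at chr2:174437498-174438239, 800 bp from the start, was more accessible in the authors' deposited tables in exudate (29.13) and membrane (17.11) than bone marrow, in exudate than blood (7.17) and in blood than bone marrow (5.80). The authors' deposited tables gave the Tfe3 site at chrX:7762266-7763240, which spans its printed promoter, as more accessible in exudate (4.57) and membrane (3.84) than blood. A site 9697 bp from the Ctsb start, chr14:63132159-63132723, reached 21.01 for exudate and 16.94 for membrane against bone marrow in the authors' deposited tables, and 7.81 for blood against bone marrow. In the authors' deposited tables Atp6v0d2, scarce in RNA, had a site at chr4:19918767-19919315, 3290 bp from its start, more accessible in exudate than blood (4.56) and bone marrow (10.58) and in membrane than blood (2.75) and bone marrow (7.65). A second site in the authors' deposited tables, chr4:19926916-19927473, 4311 bp from the Atp6v0d2 start, was less accessible in exudate (3.07) and membrane (2.51) than bone marrow. Opposite in direction, a site 302 bp from the Atp6v0d1 start, chr8:105565234-105565745, was less accessible in exudate than blood (6.73) in the authors' deposited tables, which assign it to Agrp.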

How the data were processed

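RNA was counted per gene by the authors: the deposited tables hold raw counts of read pairs over exons, made with featureCounts 1.5.0-p2 (tissues, unstranded) and 1.6.3 (cultures, reverse stranded) at a minimum mapping quality of 255, per the file headers. The submitters' processing notes also name STAR, MACS2 and DESeq2 and build mm10. The authors' deposited lists of differential ATAC sites give −log10 of an adjusted p per site and no library values, and in the deposited merged list the score column and the other columns (merged peaks, width) served no test.

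Each table was fitted once over all its groups with edgeR 4.0.16 in R 4.3.3 (TMM scaling, filterByExpr with a minimum count of 10, a minimum total of 15 and a share of 0.7, quasi-likelihood test, Benjamini-Hochberg adjustment over all genes tested). Standard errors are the log2 fold change divided by the square root of F. Alternatives were DESeq2 1.42.0, RLE and total-count scaling, no filter, the groups compared alone, a 2-fold threshold, a replicate block and each library left out. Leaving out blood libraries 1 and 2, or exudate library 5, and a tissue block on column tag and m number were chosen after seeing the data. The first culture table holds 18 further count columns, 10 of them sums of a pair, that were not used. Count precision is limited by the library totals, and in the tissue libraries by the spread between them. The scripts were tested on simulated data.

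Members and gene lists were chosen with earlier results of these data known. Named with values are members changed at least 2-fold in any culture comparison, the 3 largest called rises and falls of each comparison, Tfeb, Tfe3, Mitf, the d and a subunits, and, in tissues, members whose libraries did not overlap or that were among the 5 most abundant per length. Genes of the other lists were picked, after their values were seen, from those called the same way in all 6 responses.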

Additional observations from a re-analysis of the deposited data

Results flagged for a closer look

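In groups of 5 tissue libraries, 1 library stood apart from the other 4 by Dixon's test at 95% for the following members. Chance gives this flag in about 1 in 20 groups where values are normally distributed. Many of these values are skewed or at 0, so the flag may come more often here. In exudate, library 5 read 2489 CPM for Atp6v1g1 (201 to 501 in the others) and 438 for Ctsh (0 to 111). Exudate library 3 read 74.5 CPM for Tcirg1 (0 to 0.306), 6.27 for Mitf (0 to 0.891), 30.7 for Mcoln1 (0 to 8.02) and 14.4 for Npc1 (0 to 0.713). Exudate library 2 read 52.2 CPM for Tfeb (0 to 7.93) and 46.7 for Hexa (0 to 3.21). Exudate library 1 read 878 CPM for Atp6ap2 (0 to 217) and library 4 read 8.02 for Atp6v1h (0 to 0.470). In blood, library 1 read 282 CPM for Atp6v1e1 (114 to 146) and 64.7 for Npc1 (0.0482 to 13.4), library 2 read 0.571 for Atp6v0d2 (0 to 0.119) and library 5 read 159 for Tcirg1 (2.68 to 14.1).

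The zymosan response differed from that of wild type by at least 2-fold, by the interaction term of the edgeR fit, for 9 pairs of a member and a line. In cells labelled CEBPB-/- these were Atp6v1c1 (1.49 on the log2 scale) and Ctsz (1.62). In cells labelled JUNB-/- they were Atp6ap2 (1.15), Ctsd (1.02), Ctsl (1.33) and Ctsz (1.53). In cells labelled IRF5-/- they were Ctsl (1.24) and Ctsz (1.45), and in cells labelled RELB-/- Ctsz (1.07). In all 9 the response was larger than in wild type.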

How the results depend on the processing

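Counts of called members in the culture comparisons, both directions added, stayed within 1.5 times under every alternative except the 2-fold threshold. By direction they did not: total-count scaling moved lower calls from 6 to 19 and from 8 to 21 in the wild type sets, members higher in all 6 cultures from 24 to 13 and members lower in all 6 from 3 to 14. At 2-fold, 16 and 17 members were called in wild type cells of the first and second set. The counts were 21, 19, 22 and 20 for the response in cells labelled CEBPB-/-, JUNB-/-, IRF5-/- and RELB-/-. Against wild type they were 2, 9, 6 and 3 in DMSO and 6, 13, 3 and 1 in zymosan, and 3 for RUNX1-/- and 8 for KLF6-/-. The interactions gave 2, 4, 2 and 1, and the second wild type response against the first 0.

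The tissue counts, 0 in the report, were 1, 2, 1, 2 and 1 with DESeq2 for blood and exudate against bone marrow, membrane against blood and bone marrow, and exudate against membrane. Without the count filter they were 1, 1 and 2 for blood, exudate and membrane against bone marrow. With only the groups compared, membrane against bone marrow gave 3. Leaving out single libraries gave 0 to 1 for exudate against bone marrow, with 1 (Ctss) without exudate library 5. Differential ATAC sites were near 25 members within 50000 bp, against 6 within 1000 bp.

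Total-count scaling reversed these log2 differences between lines and wild type: Atp6v0a1 in cells labelled CEBPB-/- (−0.09 in DMSO, −0.34 in zymosan) and JUNB-/- (−0.35 in DMSO), Atp6v0a2 in JUNB-/- in zymosan (−0.29), Atp6v0d1 in IRF5-/- in zymosan (−0.04), KLF6-/- (−0.01) and RUNX1-/- (0.13), Atp6v1d in RUNX1-/- (0.05), Mitf and Tfeb in CEBPB-/- in zymosan (−0.21 and −0.39), Tfe3 in CEBPB-/- (−0.20) and JUNB-/- (−0.27) in DMSO, and Tfeb in RUNX1-/- (0.23). It reversed the wild type responses of Tcirg1 in the first set (−0.53) and Tfe3 in the second (−0.17). The smaller Ctss response in RELB-/- (−0.12) became 0.01 with only the groups compared and −0.13 to 0.01 when single libraries were left out. Of 304 named values, total-count scaling kept the call and direction of 283, RLE 298, no filter 297 and DESeq2 287. The cause was not tested.

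Same-numbered culture libraries showed no common deviation (median correlations 0.00, −0.01 and 0.00 in the 3 tables). With 2 libraries per group a weak shared effect could go unseen, so whether these numbers pair the samples is not known. A replicate block gave 35 calls in wild type cells of the first set, 31 against 32 for IRF5-/- in zymosan, and 32 against 33 for RELB-/- in DMSO. In the tissues, 11 pairs of libraries with the same tag and m number correlated at −0.04 to 0.10 (median −0.01), beside −0.23 to 0.18 for 70 other pairs. A replicate block on tag and m number, chosen after seeing the data, gave 2 calls for blood against bone marrow (Ctss higher, Atp6v1c1 lower), 1 for exudate against bone marrow (Ctss), 1 for membrane against blood (Ctsz) and 3 for membrane against bone marrow (Ctsb, Ctss and Lamp2).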
